A study of Homo sapiens with 6 samples.

Results

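ATP-binding cassette (ABC) transporters are membrane pumps that use ATP to move drugs, lipids, peptides, metals and metabolites, and the genes described here are those whose symbol is ABCA, ABCB, ABCC, ABCD, ABCE, ABCF or ABCG followed by a number. The deposited table held 45 such symbols among 19223, listed as 89 of its 45006 transcripts. Each symbol was represented by 1 transcript, that of highest mean value across all 6 libraries. A gene was tested where 3 or more libraries reached a value of 10, which was the case for 26 of the 45 symbols and for 12725 of all 19223. In tumor cells, ABCB1 (P-glycoprotein), ABCG2 and several ABCC proteins are known for pumping anticancer drugs out of the cell. Other members load lipids into lysosomes, carry fatty acids into peroxisomes or iron-sulfur and haem compounds through mitochondria, and ABCE and ABCF proteins have no membrane part and act on ribosomes and translation.

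RNA was sequenced from LoVo cells, an established human colorectal adenocarcinoma line, in 3 vehicle-treated samples (Control) and in 3 samples that received DCC-2036, which inhibits tyrosine kinases, at 2.5 μM. The sample labels give 48 h for both groups. The values are the authors' signal per transcript, adjusted for depth by a method not given in the sources used here, and the number of reads behind them is unknown. Column totals ran from 38997229 to 40587145 over the Control libraries and from 43279603 to 48023306 over the treated ones. The labels do not say that samples of a group came from separate cultures on separate days, so p-values measure the spread between these samples, which may be technical. In bulk RNA, fewer cells of a kind and less RNA per cell cannot be told apart.

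Markers of the labelled cell type were checked first. Of 14 colorectal epithelial markers, 8 passed the filter, with KRT8 the most abundant, and the summed value of the 14 was 106252, 110015 and 116911 in Control, against 149726, 165008 and 190202 after treatment. Most of this difference was KRT8, which ran from 55603 to 64134 in Control and from 92924 to 125395 after treatment. KRT20 read 64.1, 43.6 and 51.5 in Control and 17.7, 28.0 and 24.6 with DCC-2036. Of the 8 tested markers 2 were called higher and 1 lower, against 19.2% and 22.7% of all tested genes. EPCAM, CDH1, KRT18, KRT19, CLDN7 and CDX2 were well above the filter. CDX1 was listed at 0 in all 6 libraries, and VIL1, LGALS4, CEACAM5, CDH17 and GPA33 stayed below 10 in each, so 6 of the 14 markers of the label were absent or nearly so. Of 8 leukocyte markers 0 passed the filter, with PTPRC, CD3D and MS4A1 at 0 in every library. Single genes of the other lists passed, COL1A1 and COL3A1 among 7 fibroblast markers, VWF among 4 endothelial markers and SERPINA1 among 5 hepatocyte markers, and ALB did not. SERPINA1 was called higher, with a mean of 25.2 in Control and 67.4 with DCC-2036.

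Libraries of the DCC-2036 group were less alike than those of Control. Over the tested genes, the median absolute log2 difference between 2 libraries was 0.11 to 0.14 within Control, 0.20 to 0.39 within DCC-2036 and 0.50 to 0.75 between the groups. DCC-2036 replicates 1 and 3 were the most distant pair within a group. In Control 7844, 7940 and 8078 transcripts were listed at 0, and in DCC-2036 5697 in each library, where some low rows hold values close to but above 0.

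Most expressed ABC genes were not called changed by DCC-2036. ABCA2 and ABCA5 were higher, and ABCB6, ABCB8, ABCF1 and ABCF2 were among those lower, at an adjusted p under 0.01 (limma on log2(value + 1), two-sided, adjusted over all 12725 genes). In all, 7 of 26 members were called, 26.9%, which compares with 5329 called genes, 41.9% of all those tested. By direction, 2 of 26 members were higher against 19.2% of all genes, and 5 of 26 were lower against 22.7%. Treated and Control samples were fully separated in 17 members, 9 higher and 8 lower, against 71.1% of all tested genes, where chance alone gives 10% for 3 against 3 samples. The median log2 fold change was -0.09 over the 26 members and -0.09 over all tested genes, and the median absolute log2 fold change 0.40 and 0.60.

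By subfamily, 2 of 5 tested ABCA genes were called, both higher, and 2 of 6 ABCB and 2 of 3 ABCF genes, all lower. None of 6 ABCC, 1 ABCE and 2 ABCG genes was called by limma, while at an unadjusted p under 0.05 there were 3 ABCC, 0 ABCE and 1 ABCG genes. Most of all tested genes were under that limit too, since ABCA3, at an unadjusted p of 0.025 (limma), had rank 7606 of 12725. The scaling of the libraries moved all genes together, so the sign of a member with a small change depends on it. With libraries scaled to equal totals the median log2 fold change of all tested genes shifted by -0.20, and with the upper quartile by 0.11. Of all calls 45.8% were higher with the values as deposited. This share was 32.7% with equal totals, 50.7% with the median of ratios and 54.5% with the upper quartile. When 1 library was left out, 2 ABC genes were called lower without any 1 of the Control replicates or DCC-2036 replicate 2, against 5 with all libraries. Of all 12725 tested genes, 1502 to 1650 were lower in these fits, against 2887 with all libraries. Without DCC-2036 replicate 1, 9 ABC genes and 3444 of all tested genes were lower. Without DCC-2036 replicate 3, 4 ABC genes were called higher instead of 2, and 2501 of all tested genes instead of 2442.

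**Figure D1:**
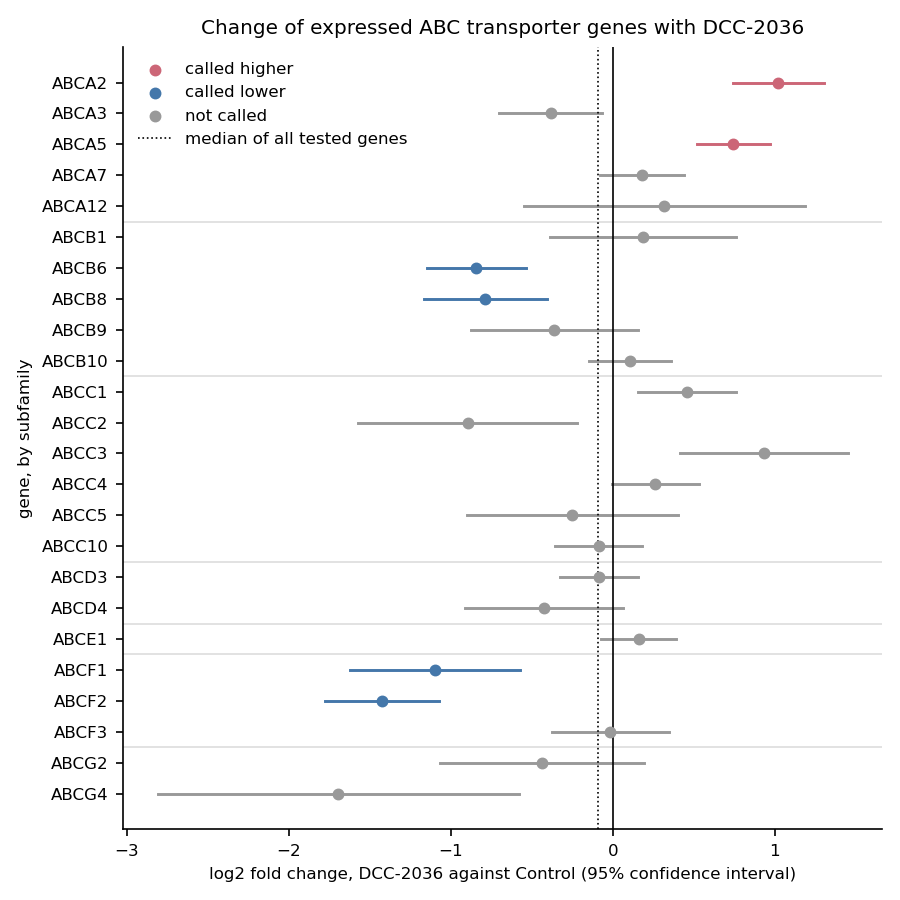
Log2 fold change of DCC-2036 against Control with its 95% confidence interval (limma) for 24 of the 26 expressed ABC genes, ordered by subfamily, with genes called at an adjusted p under 0.01 in colour. Of the coloured genes, ABCF2 lies farthest to the left at -1.42 and ABCA2 farthest to the right at 1.02, while no ABCC, ABCE or ABCG gene is coloured.

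Levels between genes were compared per kb of transcript, with lengths from GENCODE 29 through the RefSeq accession, found for all 26 tested members. Whether the deposited values already take length into account is not given in the sources used here. On this scale ABCF2 had the highest Control mean, 1209 per kb, before ABCF1 at 835 and ABCE1 at 729.9. Without division by length the Control mean was 4287 for ABCF2, 2914 for ABCC1, 2907 for ABCF1 and 2862 for ABCE1, so the order below ABCF2 depends on it. Among drug pumps the level was 445 per kb for ABCC1 and 431 for ABCC2, but 10.2 for ABCB1 and 10.1 for ABCG2. ABCA12 had the lowest level of the tested members, 1.67 per kb.

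**Figure D2:**
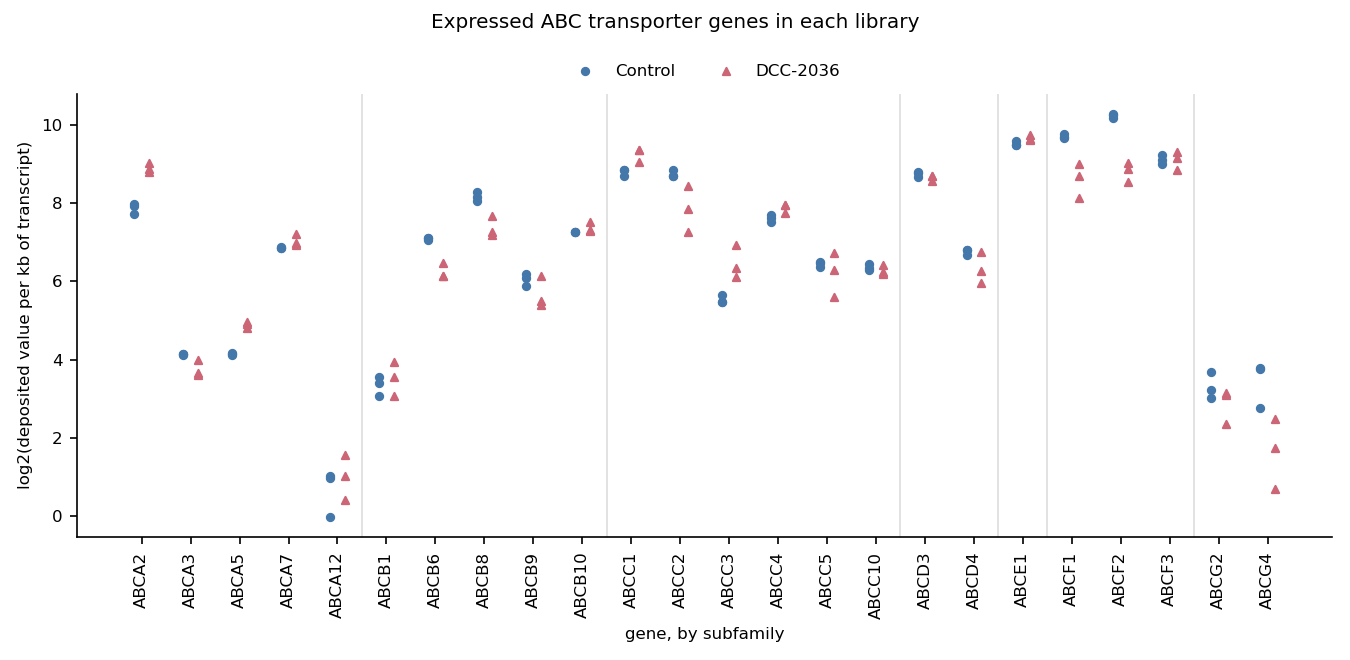
Deposited value per kb of transcript, on a log2 scale, in each of the 3 Control (circles) and 3 DCC-2036 (triangles) libraries for 24 of the 26 expressed ABC genes, separated by subfamily. The groups are apart for ABCA2 and ABCF2, and overlap for the weakly expressed pumps ABCB1 and ABCG2.

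Of the pumps best known for drug resistance, ABCB1 and ABCG2 were weakly expressed and overlapped between the groups. ABCB1 read 48.9, 39.3 and 54.4 in Control and 71.4, 55.2 and 39.3 with DCC-2036. Its log2 fold change was 0.19, with a 95% confidence interval from -0.38 to 0.76 and an adjusted p of 0.514 (limma), and its sign turned, to -0.02, without DCC-2036 replicate 1. ABCG2, the breast cancer resistance protein, read 42.3, 57.5 and 36.6 in Control and 38.3, 39.9 and 22.8 with DCC-2036. Its log2 fold change was -0.44, from -1.07 to 0.19, with an adjusted p of 0.185.

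ABCC genes encode multidrug resistance-associated proteins, which export drugs and their glutathione, glucuronide and sulfate conjugates. ABCC3 came closest to a call. Its value was 253, 286 and 255 in Control and 396, 464 and 698 with DCC-2036, so that all 3 treated samples lay above all controls. The log2 fold change was 0.93 with an SE of 0.22, and the adjusted p, 0.010, was just above the limit. ABCC3 was called in 9 of 18 alternatives, among them 2 of the 3 scalings and the fits without DCC-2036 replicate 1 (adjusted p of 0.00418, limma) or replicate 3 (0.00391), and it was higher in all of them. The 9 include the looser limit of an adjusted p under 0.05, which the main fit already met. The 2 scalings, median of ratios and upper quartile, shift all genes up together, by 0.08 and 0.11 on the log2 scale.

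ABCC1 stood at 3000.4, 2737 and 3006 in Control and at 4305, 4304 and 3459 with DCC-2036, again without overlap. Its log2 fold change of 0.46 (SE 0.13) had an adjusted p of 0.019, and the call depended on the processing. It was called without DCC-2036 replicate 3, its lowest treated sample, at an adjusted p of 0.00377 (limma), and with the median of ratios, the upper quartile and a trend in limma, while with equal totals the adjusted p was 0.165. ABCC4 had a smaller difference of the same sign, from 1222, 1159 and 1067 to 1445, 1440.4 and 1254, with a log2 fold change of 0.26 and an adjusted p of 0.081. ABCC2, the apical exporter of conjugated bilirubin and drugs, had the opposite sign. It was not called and read 2685, 2399.5 and 2421 in Control and 1999, 1351 and 896 with DCC-2036, a log2 fold change of -0.90 (SE 0.28) with an adjusted p of 0.030. Its treated samples were all below the controls and far apart from each other, and without DCC-2036 replicate 1 the adjusted p was 0.00326 (limma).

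The nucleotide exporter ABCC5 read 538, 529 and 491 in Control and 624, 461 and 289 with DCC-2036. Its treated samples lay on both sides of the controls, and the log2 fold change of -0.25 became 0.05 without DCC-2036 replicate 3. ABCC10 overlapped between the groups, with a log2 fold change of -0.09. ABCC6, ABCC8, ABCC9, ABCC11 and ABCC12 did not pass the filter. ABCC11, whose value reached 10 in 1 library, and ABCG1, in 2 libraries, were the members just outside the filter. ABCA12 and ABCG4, each with 5 libraries at 10 or more, were just inside it.

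Transcripts of ABCC3, ABCC4 and ABCC5 that end early were higher with DCC-2036 when tested on their own, and that of ABCD3 was not. GENCODE 29 gives the main ABCC5 transcript (NM_001320032.1) 30 exons, on the minus strand of chromosome 3 at chr3:183919934-184018015 (GRCh38), and NM_001023587.2, which ends after the first part of the gene at chr3:183983753-184017889, 7 exons. The short transcript read 131, 125 and 150.2 in Control and 233, 247 and 251 with DCC-2036. All 3 treated samples were above the controls and close together, unlike those of the main transcript. Tested as a transcript of its own it was higher, with a log2 fold change of 0.85 and an adjusted p of 0.00119 (limma over all transcripts).

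In ABCC4 the main transcript has 31 exons and NM_001105515.2 has 21. The shorter one read 462, 429 and 375 in Control and 639.9, 692 and 689 with DCC-2036, a log2 fold change of 0.68 with an adjusted p of 0.00296 (limma), against 0.26 for the main one. A further transcript with 20 exons, NM_001301830.1, had 0.62. In ABCC3, NM_001144070.1 has 12 exons where the main transcript has 31, and read 98.6, 125 and 109 in Control and 211, 247 and 369 with DCC-2036. Its log2 fold change was 1.27, with an adjusted p of 0.00332, against 0.93 for the main transcript, which was called as well in this fit over all transcripts, at 0.00968 (limma). In ABCD3, NM_001122674.1 has 9 exons where the main transcript has 23, and its log2 fold change was -0.13 with an adjusted p of 0.341.

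Transcripts of a gene share exons, so reads are shared between these values, and the comparison within a gene was chosen after the values were seen. When each transcript was set against the other transcripts of its gene (diffSplice in limma), 0 of 43 transcripts of 16 ABC genes had an adjusted p under 0.01, against 0.761% of 27082 transcripts, and 4 had an unadjusted p under 0.05. The short ABCC5 transcript was 1.10 above the others on the log2 scale, with an adjusted p of 0.190. These others, both of 30 exons, have the same treated values and are not separate measurements.

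**Figure D3:**
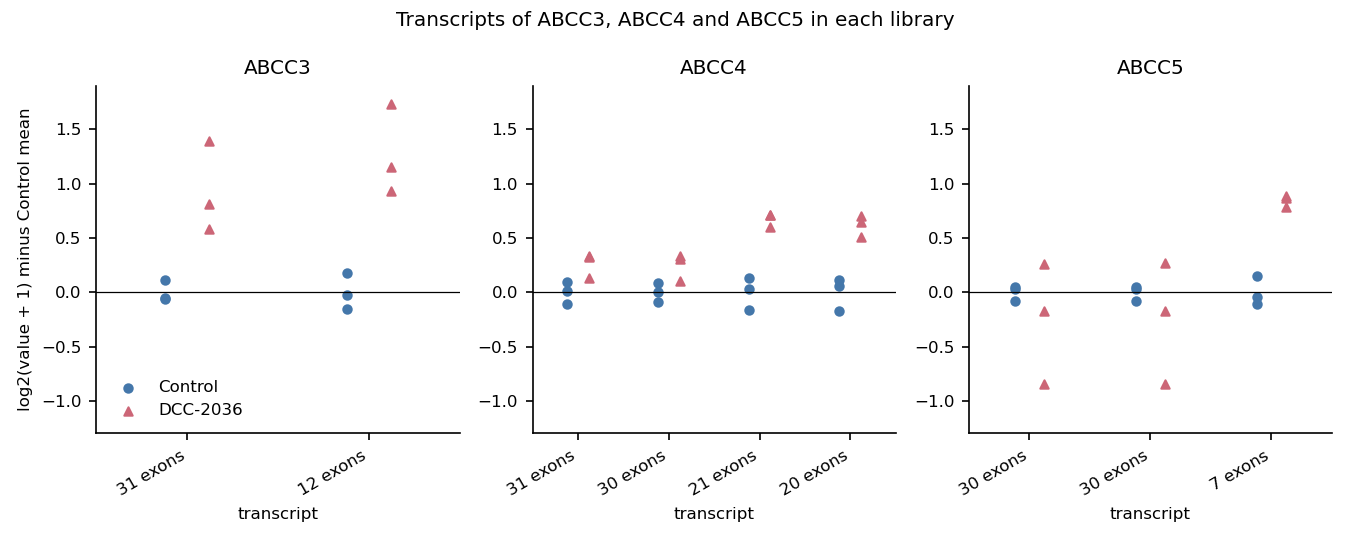
Log2(value + 1) minus the Control mean of the same transcript, in each Control (circles) and DCC-2036 (triangles) library, for the transcripts of ABCC3, ABCC4 and ABCC5 that passed the filter, ordered by number of exons. The treated samples of the 7-exon ABCC5 transcript sit together above the controls, whereas those of both 30-exon ABCC5 transcripts lie on either side of them. The 30-exon transcripts have the same treated values and are not separate measurements.

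The lipid carriers of the ABCA subfamily held both genes that rose. ABCA2, a carrier of late endosomes and lysosomes, was 2039, 1713 and 1954 in Control and 3609.9, 3786 and 4179 with DCC-2036. Every treated sample was well above every control, the ratio of the group means was 2.03, and the log2 fold change was 1.02 (SE 0.12, adjusted p of 8.43e-04, limma). ABCA5, likewise lysosomal, read 114, 115 and 118 in Control and 202, 184 and 196 with DCC-2036. Its log2 fold change was 0.74 (SE 0.09) with an adjusted p of 0.00115 (limma), and it kept the call without each library in turn. An exon of ABCA5 overlaps the neighbouring gene ABCA10 on the same strand, whose own value was at most 7.24.

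Other ABCA genes were not called. ABCA3, the lipid carrier of lung lamellar bodies, was 118, 114 and 118 in Control and 106, 83.4 and 80.04 with DCC-2036, with an adjusted p of 0.041. Without DCC-2036 replicate 1 it was called lower, with a log2 fold change of -0.51 and an adjusted p of 0.0056 (limma). ABCA7 had a log2 fold change of 0.18. ABCA12, a lipid carrier of the epidermis, had 0.32, which ranged from 0.003 to 0.60 with 1 library left out. ABCA1, ABCA4, ABCA10 and ABCA13 stayed below 10 in every library, and ABCA6, ABCA8 and ABCA9 were listed at 0 in all.

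The sterol exporters ABCA1, ABCG1, ABCG5 and ABCG8 did not pass the filter. ABCA1, which loads cholesterol onto apolipoprotein A1, read 3.72, 6.20 and 5.53 in Control and 4.18, 6.48 and 6.97 with DCC-2036. ABCG1 read 13.2, 6.76 and 17.7 in Control and 9.26, 4.36 and 1.39 with DCC-2036. ABCG5 was above 0 in 1 Control sample, at 2.88, and ABCG8 was at 0 throughout. ABCG4, a sterol carrier best known from brain, passed the filter through all 3 controls and 2 treated samples. It read 26.1, 53.0 and 52.6 in Control and 21.7, 13.0 and 6.29 with DCC-2036, all treated samples lower, with a log2 fold change of -1.69 (SE 0.46) and an adjusted p of 0.019, and of 0.00672 without DCC-2036 replicate 1 (limma).

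Beside the drug pump ABCB1, the ABCB subfamily holds organelle carriers, and both of its called genes were among these. ABCB6, a porphyrin carrier, read 424, 406 and 423 in Control and 215, 214 and 273 with DCC-2036, which was 56.0% of Control. ABCB8, of the inner mitochondrial membrane, read 713, 659 and 769.6 in Control and 382, 361 and 510.4 with DCC-2036, 58.5% of Control. Both fell without overlap, by 0.84 (SE 0.13) and 0.79 (SE 0.16) on the log2 scale, with adjusted p of 0.00208 and 0.00597 (limma). ABCB6 lost its call without any 1 of the Control replicates or DCC-2036 replicate 2, with an adjusted p of at most 0.012. ABCB8 lost it without any 1 of the Control replicates or DCC-2036 replicates 1 or 2, with an adjusted p of at most 0.027, and under 2 scalings.

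ABCB10 had a log2 fold change of 0.10. The lysosomal peptide carrier ABCB9 had -0.36 with an adjusted p of 0.182, ranging from -0.59 without DCC-2036 replicate 1, where it was called (0.00924, limma), to -0.22 without DCC-2036 replicate 3. ABCB4 and ABCB11, the phospholipid and bile salt exporters of liver canaliculi, were at or near 0, and ABCB5 was at 0 in every library.

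In the ABCD subfamily, the peroxisomal ABCD3 was abundant and overlapped between the groups, with 1543, 1559 and 1427 in Control and 1467, 1469 and 1339 with DCC-2036. Its log2 fold change was -0.08. The lysosomal cobalamin carrier ABCD4 had -0.42 with an adjusted p of 0.109, ranging from -0.64 without DCC-2036 replicate 1, where it was called (0.00719, limma), to -0.25 without DCC-2036 replicate 3.

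In the ABCF subfamily, ABCF1 and ABCF2 fell, and ABCF3 was not called. ABCF2 read 4132, 4311 and 4418 in Control and 1849, 1674 and 1313 with DCC-2036. The treated mean was 37.6% of Control, with a log2 fold change of -1.42 (SE 0.15, adjusted p of 6.24e-04, limma) that was called in all 18 alternatives. ABCF1, which binds the initiation factor eIF2 and ribosomes, read 2871, 2844 and 3007 in Control and 1776, 1446 and 978 with DCC-2036. Its treated samples were all below the controls but differed among themselves, and the log2 fold change was -1.10 (SE 0.22) with an adjusted p of 0.00567 (limma). The call of ABCF1 was lost without any 1 of the Control replicates or DCC-2036 replicate 2, with an adjusted p of at most 0.024.

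ABCF3 read 1356, 1443 and 1581 in Control and 1667, 1497 and 1200.4 with DCC-2036. The groups overlapped and the log2 fold change of -0.02 took either sign with 1 library left out, from -0.12 to 0.12. ABCE1, which splits ribosomes after termination, read 2804, 2994 and 2788 in Control and 3098, 3118 and 3377 with DCC-2036. These values did not overlap, but the log2 fold change of 0.16 had an adjusted p of 0.190. GENCODE 29 lists 2 pseudogene copies of ABCF2. Exons of 6 tested members overlap another coding gene, on the same strand for ABCA5, ABCB6 and ABCF2 and on the opposite strand for ABCB9, ABCC10 and ABCE1, and reads of such pairs may not have been told apart.

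ABCB8 and ABCF2, both lower, lie near each other on chromosome 7, with 164707 bases between their ends in GENCODE 29 (GRCh38). Promoters were taken from RefSeq (GRCh38.p14), found for 22 of the 26 tested members, and the 250 bases before the start were searched on both strands for GGGCGG, the core letters of the GC box to which SP1 binds, SP1 being part of the signalling axis of the study. The start used there can differ from that of the tested transcript. It lies within 250 bases of it for 17 of the 22 members, among them ABCB8 and ABCF2, and 732 bases away for ABCA2 and 11708 for ABCA5. The 250 bases of ABCB8 and ABCF2 are shown, 5′ to 3′ on the strand of the gene. Capitals mark GGGCGG or its reverse complement CCGCCC. The regions are chr7:151028200-151028449 (plus strand) for ABCB8 and chr7:151227206-151227455 (minus strand) for ABCF2.
ABCB8: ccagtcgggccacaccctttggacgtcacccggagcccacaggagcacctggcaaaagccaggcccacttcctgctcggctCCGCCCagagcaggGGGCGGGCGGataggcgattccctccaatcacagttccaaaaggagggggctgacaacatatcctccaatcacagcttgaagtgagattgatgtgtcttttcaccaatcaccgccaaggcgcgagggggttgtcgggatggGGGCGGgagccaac
ABCF2: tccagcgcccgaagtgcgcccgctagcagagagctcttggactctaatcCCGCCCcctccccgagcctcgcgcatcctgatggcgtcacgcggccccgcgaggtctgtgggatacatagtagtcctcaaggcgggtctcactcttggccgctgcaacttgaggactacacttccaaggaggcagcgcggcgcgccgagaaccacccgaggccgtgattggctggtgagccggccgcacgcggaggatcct
The letters occur 4 times in the ABCB8 window and 1 time in that of ABCF2. Among the 17 members, at least 1 occurrence was found in 4 of 4 promoters of those called lower and in 9 of 13 not called. Over all 22 promoters it was 15, 68.2%, against 68.5% of 9917 promoters of tested genes and 42.3% of all 27305 promoters.

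ABC proteins named outside the rule were examined as well. TAP1 and TAP2 together carry peptides into the endoplasmic reticulum for class I antigen presentation. TAP2 read 1426, 1385 and 1429 in Control and 987, 933 and 1128 with DCC-2036, lower without overlap, with a log2 fold change of -0.48 and an adjusted p of 0.00928 (limma). The call was lost without any 1 library other than DCC-2036 replicate 3, with an adjusted p of at most 0.043, and under 2 of the 3 scalings (0.025 and 0.030). TAP1 overlapped, with a log2 fold change of -0.17 and an adjusted p of 0.265. CFTR, the chloride channel, was listed at 0 in all 6 libraries. Of 11 partners in peptide loading, 2 were higher, against 19.2% of all tested genes, and 0 lower, against 22.7%. These were PDIA3 (0.55) and ERAP1 (0.48) on the log2 scale. At an unadjusted p under 0.05, which most of all tested genes had, there were 5 higher and 1 lower. The count of calls moved with the scaling, to 0 higher and 1 lower with equal totals and to 4 higher and 0 lower with the upper quartile. So did that of all tested genes, to 1669 higher and 3440 lower of 12737 with equal totals. With the upper quartile it was 2954 higher and 2467 lower of 12714. The median of the 11 was 0.36.

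Genes that supply and feed the pumps were then counted beside all tested genes, of which 19.2% were higher and 22.7% lower. No list was tested as a set, and what follows describes single genes. Counts under another scaling stand against those of all tested genes under it. These were 1669 higher and 3440 lower of 12737 with equal totals, and 2954 higher and 2467 lower of 12714 with the upper quartile. Of the 13 tested among 16 receptors and co-factors that sense foreign compounds or sterols, 1 was higher and 3 were lower (19.2% and 22.7% of all genes), with a median log2 fold change of -0.13. AHR, the aryl hydrocarbon receptor, rose from 575, 562 and 565 to 1181, 1599.6 and 2194, a log2 fold change of 1.50, and the call was lost without any 1 of the Control replicates, with an adjusted p of at most 0.011 (limma). Both liver X receptors, sensors of oxysterols, fell. NR1H3 read 195, 238 and 243 in Control and 67.2, 38.1 and 40.2 with DCC-2036, a log2 fold change of -2.23, and NR1H2 had -1.21. Their partner RXRB had -0.75 and RXRA -0.05. NR1I2, the pregnane X receptor that induces ABCB1, was at 0 in the controls and at most 2.23 with DCC-2036.

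Carriers for uptake, with a few other exporters, had 15 of 23 genes tested, 1 higher and 4 lower (19.2% and 22.7% of all genes), and a median of -0.17. These counts were the same under all scalings. The nucleoside carriers SLC29A1 and SLC29A2 and the folate carriers SLC19A1 and SLC46A1 fell. SLC46A1 read 495, 556 and 602 in Control and 106, 84.6 and 112 with DCC-2036, a log2 fold change of -2.44 with an adjusted p of 1.93e-04 (limma). SLC29A2 read 608, 588 and 612 in Control and 108, 136 and 187 with DCC-2036, a log2 fold change of -2.10. SLC29A1 had -1.87. SLC19A1 had -1.32, and its call was lost without any 1 of 4 libraries, with an adjusted p of at most 0.025 (limma). The copper exporters ATP7A and ATP7B overlapped between the groups.

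Among the enzymes that make conjugates for ABCC export, 13 of 27 were tested, 2 higher and 2 lower (19.2% and 22.7% of all genes), with a median of 0.01. Over the scalings 1 to 4 were higher and 1 to 2 lower. GSTP1 (0.62) and MGST3 (0.81) were higher, and GSTO1 (-0.49) was among those lower, on the log2 scale. The call of GSTO1 was lost without any 1 of the 6 libraries, with an adjusted p of at most 0.045, and under 2 scalings, and that of GSTP1 without any 1 of 5 libraries, at most 0.039, and with equal totals (limma). The glucuronosyltransferases UGT1A1, UGT1A6, UGT1A8 and UGT1A10 stayed below 10. For glutathione synthesis, 2 of 7 genes were higher and 0 lower (19.2% and 22.7% of all genes), with a median of 0.27. At an unadjusted p under 0.05, which most of all tested genes had, there were 4 higher and 0 lower. SLC7A11, the cystine importer, read 682, 777 and 573 in Control and 4682, 6144 and 7660.1 with DCC-2036, a log2 fold change of 3.17, and GCLC had 0.69. Of 7 tested phase I genes among 16, 1 was called, the esterase CES2, lower with -1.13, and the median was -0.04. CYP3A4 was at or near 0.

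Partners of the lipid and organelle carriers were counted in the same way. Of 14 genes of peroxisomes, all tested, 3 were higher and 4 lower (19.2% and 22.7% of all genes), with a median of -0.03. With equal totals 1 was higher and 4 lower. ACAA1 (1.04), SCP2 (0.78) and ACSL1 (0.92), enzymes of fatty acid use and a lipid carrier protein, were higher on the log2 scale. PEX19 (-1.51) and PEX16 (-0.93), which insert peroxisomal membrane proteins, and SLC27A2 (-1.25) and ELOVL1 (-0.58), which activate and elongate long fatty acids, were lower. PEX19 read 819.8, 873 and 945 in Control and 282, 282 and 369 with DCC-2036.

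Of 18 mitochondrial iron-sulfur and haem genes, all tested, 4 were higher and 2 lower (19.2% and 22.7% of all genes), with a median of -0.09. With equal totals 3 were higher and 4 lower, where 1669 of all 12737 tested genes were higher and 3440 lower. GLRX5 (0.88), SLC25A38 (0.63) and UROD (0.47) were among those higher, and the iron carrier SLC25A28 (-1.12) was among those lower, on the log2 scale. The call of UROD was lost without any 1 of the 6 libraries, with an adjusted p of at most 0.039, and with equal totals, that of SLC25A38 without any 1 of 4 libraries and that of GLRX5 without any 1 of 3 (limma). Of 11 tested genes for ribosome recycling and stress sensing among 12, HBS1L (0.62) and EIF2S2 (0.66) were higher and 0 were lower (19.2% and 22.7% of all genes). Their median was 0.13. At an unadjusted p under 0.05, which most of all tested genes had, there were 4 higher and 1 lower. With equal totals 1 was called higher. Of 13 tested genes for sterol handling among 14, 3 were higher and 2 lower (19.2% and 22.7% of all genes), with a median of 0.41. With the upper quartile 6 were higher and 1 lower. APOE (1.91), SOAT1 (1.19) and NPC2 (0.73) were higher, and LCAT (-2.23) and LPCAT3 (-0.62) lower, on the log2 scale. LCAT passed the filter through all 3 controls and 1 treated sample. It read 57.4, 50.9 and 45.0 in Control and 8.34, 19.2 and 6.18 with DCC-2036. Where every library had to reach 10, LCAT was not tested, and 4 genes of the list were higher and 1 lower.

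Of these 39 called genes in all lists, 17 kept the call without each library in turn, among them SLC7A11, SLC46A1, SLC29A1, SLC29A2, NR1H2, NR1H3, MGST3, CES2, PEX19, PEX16, ACAA1, SLC27A2, SLC25A28, APOE and SOAT1. The other 22 lost it without at least 1 library, among them TAP2, PDIA3, ERAP1, AHR, RXRB, SLC19A1, GSTP1, GSTO1, GCLC, SCP2, ACSL1, ELOVL1, HBS1L, EIF2S2, SLC25A38, GLRX5, UROD, LCAT, NPC2 and LPCAT3. Of the 22, 20 to 22 lost it without a Control replicate or DCC-2036 replicate 2, 3 without DCC-2036 replicate 1 and 5 without DCC-2036 replicate 3, with an adjusted p of at most 0.045 (limma).

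**Figure D4:**
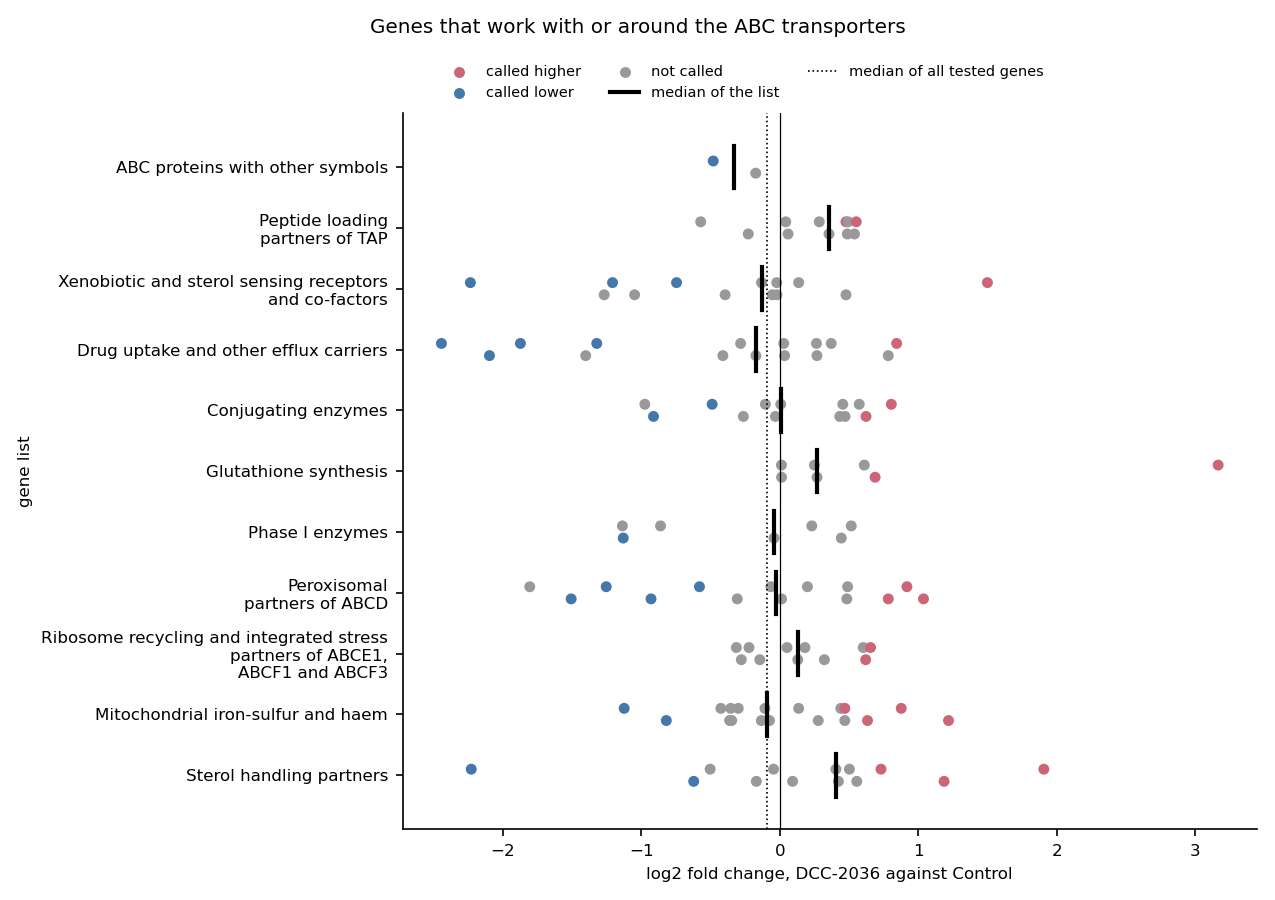
Log2 fold change of DCC-2036 against Control for the tested genes of 11 lists that work with or around ABC transporters, each point 1 gene, coloured where the adjusted p is under 0.01 (limma), with the median of each list as a bar and the median of all tested genes, -0.09, as a dotted line. SLC7A11 stands alone at 3.17 in the row of glutathione synthesis, and the 4 uptake carriers called lower lie between -2.44 and -1.32.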

How the data were processed

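The 6 LoVo libraries, 3 Control and 3 DCC-2036, were grouped by sample title. Treatment lasted 48 h by the labels, and the study's own text differs. The deposited table holds, per transcript and library, a signal adjusted by the authors for depth, with column totals that still differ. Further columns deposited by the authors, with log2 fold changes and with p-value and q-value per transcript, were not used. Aligner, build and counting method are not given in the sources used here. Because the values are not whole, limma 3.58.1 in R 4.3.3 was used on log2(value + 1), without covariates, and fold changes on this scale understate those of weakly expressed genes. Calls use an adjusted p (Benjamini-Hochberg) under 0.01. For 3 against 3 samples, the smallest p of an exact permutation test is 0.1. Intervals are 95% confidence intervals. Code was tested on simulated data. Lengths, positions and promoters were read with pandas in Python 3.11.15. Named genes were called members, drug pumps and sterol exporters, members next to the filter, and called or defining genes of the lists, and some of these are not reported here or drawn by name. Members and lists were chosen with earlier results of these data known. Alternatives were 3 scalings, 2 other filters, each library left out, a replicate block, a pseudocount of 0.1, 2 other call limits, a sum over transcripts, all transcripts, and limma with a trend. The test within genes was added after the data had been seen. Tests planned for the case of whole read counts were not run.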

Additional observations from a re-analysis of the deposited data

How the results depend on the processing

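Counts of calls and ABC members were recomputed under 18 alternatives, and under 17 for ABCA12 and ABCG4, which do not reach 10 in every library. ABCA2 and ABCF2 were among the members that kept direction and call in all of them, ABCA5 lost its call only where a size limit of 1 on the log2 scale was added, and ABCB6, ABCB8 and ABCF1 lost theirs in some. None of the 7 called members changed direction. ABC genes called higher and lower, 2 and 5 with the values as deposited, were 4 and 4 with the median of ratios. They were 4 and 4 with the upper quartile, 2 and 3 with no filter, and 4 and 8 at an adjusted p under 0.05. With that size limit they were 1 and 3, and with a trend in limma 4 and 5. With 1 library left out they ranged from 2 to 4 higher and from 2 to 9 lower. Over all tested genes, 2710 of 12690 were higher and 2634 lower with the median of ratios. With the upper quartile 2954 of 12714 were higher and 2467 lower, and with no filter 1749 of 16667 and 2154. At an adjusted p under 0.05, 3630 of 12725 were higher and 4290 lower, and with a trend in limma 2880 and 3307. With all transcripts as rows, 9 of 53 ABC transcripts were higher and 10 lower, which counts transcripts and not genes. All tested genes called higher, 2442, ranged from 929 to 2717 with 1 library left out, and those called lower, 2887, from 1502 to 3444, where fewer samples alone widen the error. The size limit left 944 genes higher and 1930 lower, and with all transcripts as rows 6379 of 32323 transcripts were higher and 7250 lower.

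The replicate numbers were tried as a block. Deviations from the group means correlated by 0.08, -0.04 and -0.003 for the 3 numbers. With 3 samples per group these values cannot show whether the numbers stand for a pairing, and the labels do not say. With the replicate block 1202 genes were higher and 1909 lower, and 2 ABC genes higher and 4 lower, with ABCF1 no longer called at an adjusted p of 0.016 (limma).

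Uncalled members with small changes turned sign. Under another scaling this follows from its construction, since all genes shift together, by -0.20 with equal totals, 0.08 with the median of ratios and 0.11 with the upper quartile, and it says nothing about the member itself. With equal totals the log2 fold change was -0.017 for ABCA7, -0.0077 for ABCB1, -0.093 for ABCB10 and -0.039 for ABCE1. With the upper quartile it was 0.024 for ABCC10, 0.028 for ABCD3 and 0.096 for ABCF3, which had 0.066 with the median of ratios. With 1 library left out, ABCB1 ranged from -0.015 to 0.41, ABCC5 from -0.51 to 0.047 and ABCF3 from -0.12 to 0.12. The cause of the turns with 1 library left out was not tested. Depth is unknown, so the limit it sets on weakly expressed members such as ABCB1 and ABCG2 cannot be given.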
